A study of Mus musculus with 8 samples.

Results

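TRBV14, TRBV15, TRBV17 and TRBV20 are 4 variable segments of the mouse T cell receptor beta chain, and their use was read from single T cells of the mouse brain. The members were all productive TRB contigs, that is assembled in-frame beta chain sequences, whose deposited V call was one of these 4 segments. They numbered 683 of 6795 productive TRB contigs, found in 680 cells. TRBV14 contributed 186 contigs, TRBV15 161, TRBV17 207 and TRBV20 129. The cells were CD45+ immune cells sorted from brain parenchyma of C57BL/6 mice, from 5xFAD;Cxcr6-/- animals, which lack the chemokine receptor CXCR6, and from 5xFAD animals. Both groups carry the 5xFAD transgenes, human amyloid precursor protein and presenilin genes with familial Alzheimer's disease mutations driven by the neuronal Thy1 promoter, so there was no group without amyloid pathology. Ages, sexes and the number of mice per library were not given in the labels. Per the series title, the study asks how CXCR6 shapes the residence of brain CD8+ T cells. Of 8 samples, the 4 receptor libraries, 2 per genotype, were analysed, and the 4 expression samples were not analysed here.

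A beta chain is made by joining 1 V, 1 D and 1 J segment, and bases are removed and added at random where the segments meet. The V segment fixes the CDR1 and CDR2 loops and the first residues of the CDR3, the loop that mostly contacts the peptide, while the rest of the CDR3 differs from clone to clone. T cells that descend from the same precursor share the joined sequence, so a sequence seen in several cells marks a clone that has divided. Most T cells silence the second beta allele, a process called allelic exclusion, and most carry 1 productive beta chain.

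The members numbered 122 and 134 contigs in 5xFAD;Cxcr6-/- libraries 1 and 2, and 186 and 241 in 5xFAD libraries 1 and 2. Shares were taken over usable cells, which held exactly 1 productive TRB and 1 or 2 productive TRA chains, 5025 of 6686 barcodes. They formed 454 and 833 deposited clonotypes in the 5xFAD;Cxcr6-/- libraries and 957 and 1147 in the 5xFAD libraries, and 344 of these 3391 carried a member segment. Total UMIs were between 13460 and 34772 per library, and the 2 smallest totals were those of the 5xFAD;Cxcr6-/- libraries. The libraries shared 28 cell barcodes, and 0 of these shared a chain. Whether 2 libraries of a genotype are from different mice is not in the labels, so a p-value here speaks of the spread among the 4 libraries, which may be technical.

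The 4 genes lie on the plus strand of chromosome 6 of GRCm38, all annotated as TR_V_gene, Trbv14 at chr6:41135145-41135616, Trbv15 at chr6:41141188-41141658, Trbv17 at chr6:41163062-41163556 and Trbv20 at chr6:41188273-41188977. They are 4 of 35 annotated Trbv genes, and 22 TRBV labels were seen in the contigs. The stretch of each germline gene that enters the CDR3 is given here, because it sets how the 4 CDR3s begin. Germline bases are in lower case.
TRBV14: tgtgccagcagtttct
TRBV15: tgtgccagcagtttagc
TRBV17: tgtgctagcagtagaga
TRBV20: tgtggtgctaggga
TRBV14 and TRBV15 shared the start that encodes Cys-Ala-Ser-Ser, TRBV17 went on into an arginine codon, and TRBV20 began with Cys-Gly-Ala-Arg and was the shortest, with 14 bases against 16 or 17. The CDR1 coding sequences, which every contig of a segment carried unchanged, were these.
TRBV14: tctggacatgatacc
TRBV15: tcaggccacaatgac
TRBV17: atgaatcatgatacc
TRBV20: ggttttcaggcaacttct
TRBV20 also had the longer CDR1 and CDR2, with 6 and 7 residues against 5 and 6 in the other 3 segments.

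All 4 segments were used at low rates in both genotypes, between 1.66% and 4.08% of clonotypes in each library. TRBV14 made up 13 of 454 (2.86%) and 34 of 833 (4.08%) clonotypes in the 5xFAD;Cxcr6-/- libraries, and 27 of 957 (2.82%) and 37 of 1147 (3.23%) in the 5xFAD libraries. TRBV15 made up 2.42% and 2.16% of clonotypes in the 5xFAD;Cxcr6-/- libraries, and 2.40% and 2.09% in the 5xFAD libraries. The TRBV15 share was the most even of the 4, with an SD of 0.168 over the 4 libraries. TRBV17, the rarest of the 4, made up 1.76% and 2.16% in the 5xFAD;Cxcr6-/- libraries, and 2.09% and 1.66% in the 5xFAD libraries. TRBV20 made up 3.96% and 2.52% in the 5xFAD;Cxcr6-/- libraries, and 2.40% and 2.62% in the 5xFAD libraries. The genotypes overlapped for each segment taken alone.

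Together the 4 segments made up 10.97% ± 0.0628 of clonotypes in the 5xFAD;Cxcr6-/- libraries and 9.65% ± 0.0903 in the 5xFAD libraries (SD, n = 2 each). The difference of 1.31 percentage points was larger than the spread within each genotype, and with 2 libraries against 2 the exact two-sided permutation p of 0.333 is the smallest possible. By their share of clonotypes, 6 of 22 TRBV labels (27.3%) were higher without overlap of the library values and 4 (18.2%) lower. Among clonotypes with any other TRBV, 6.19% and 2.70% used TRAV11, the alpha segment of invariant NKT (iNKT) cells, in the 5xFAD;Cxcr6-/- libraries, against 22.1% and 14.6% in the 5xFAD libraries. Without iNKT-like clonotypes, those that join TRAV11 or TRAV11D to TRAJ18, the difference in the share of the 4 segments was 0.0226 percentage points.

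No member passed the test of segment use by genotype. edgeR's quasi-likelihood test over 152 V and J segments, with Benjamini-Hochberg adjustment, called 2 (1.32%), neither of them a member, and 12 had an unadjusted p under 0.05; DESeq2 also called 2. The log2 fold change of clonotypes, 5xFAD;Cxcr6-/- over 5xFAD, was 0.26 for TRBV14 (SE 0.28, edgeR adjusted p = 0.778), 0.01 for TRBV15 (SE 0.34, adjusted p = 0.983), 0.12 for TRBV17 (SE 0.37, adjusted p = 0.940) and 0.27 for TRBV20 (SE 0.30, adjusted p = 0.788). The median over all 152 segments was 0.14 on the same scale. These errors do not exclude changes of moderate size in either direction.

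**Figure D1:**
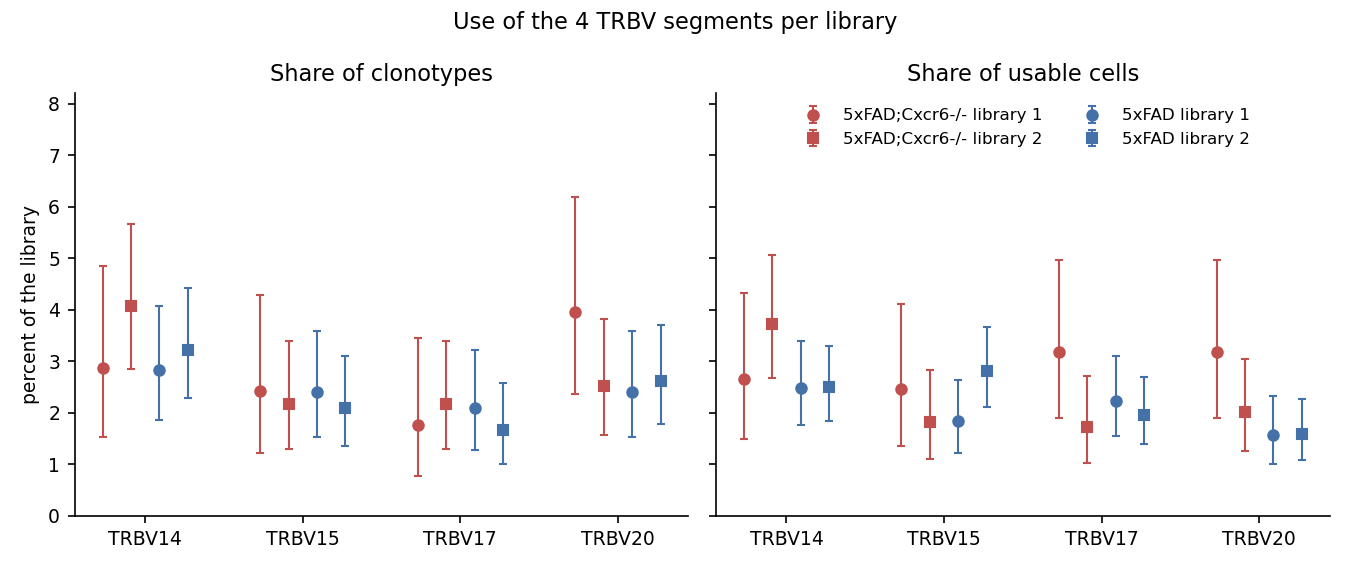
Share of clonotypes (left) and of usable cells (right) with each of the 4 TRBV segments, in percent of the library, for the 5xFAD;Cxcr6-/- (red) and 5xFAD (blue) libraries; bars are 95% Clopper-Pearson intervals, which cover counting error only. The 4 shares of clonotypes lie between 1.66% and 4.08%, and the intervals of the genotypes overlap for every segment.

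Counting cells gave more weight to the few large clones. The 4 segments made up 11.5% and 9.27% of usable cells in the 5xFAD;Cxcr6-/- libraries and 8.12% and 8.86% in the 5xFAD libraries, a difference of 1.88 points (exact two-sided permutation p = 0.333). TRBV14 was found in 2.65% and 3.73% of usable cells in the 5xFAD;Cxcr6-/- libraries and in 2.49% of those in both 5xFAD libraries. TRBV20 was found in 3.17% and 2.01% of cells in the 5xFAD;Cxcr6-/- libraries, and in 1.57% and 1.59% in the 5xFAD libraries. TRBV14 and TRBV20 did not overlap between genotypes and were 2 of the 6 TRBV labels of 22 (27.3%) that were higher without overlap, while 2 labels (9.09%) were lower. TRBV15 (2.47% and 1.82% against 1.83% and 2.81% in 5xFAD) and TRBV17 (3.17% and 1.72% against 2.23% and 1.96% in 5xFAD) overlapped. Without 5xFAD;Cxcr6-/- library 1 the difference of the 4 together was 0.783 points, without 5xFAD;Cxcr6-/- library 2 it was 2.97, and over every cell with a TRB it was 3.85. That last value leans on 1 clone. In 5xFAD;Cxcr6-/- library 1 the members were in 122 of 745 cells with a TRB (16.4%), and 51 of the 122 held the same TRBV17 chain. In 5xFAD;Cxcr6-/- library 2 the share was 10.3%.

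Ordered by mean share of clonotypes over the 4 libraries, TRBV14 was 15th of 22 labels with 3.25%, TRBV20 17th with 2.88%, TRBV15 18th with 2.27% and TRBV17 20th with 1.92%. TRBV26, between TRBV14 and TRBV20, had 3.06%, and TRBV13-2, between TRBV15 and TRBV17, had 2.24%. TRBV26 and TRBV13-2 differed from the members beside them by less than their own SD over libraries (0.480 and 0.656). The gap between TRBV13-2 and TRBV17 was larger than the SD of TRBV17 (0.246). TRBV23 and TRBV30, at 0.632% and 0.403%, were the labels below TRBV17. The segment whose profile over the 4 libraries was most like that of TRBV14 was TRBV19, with a root mean square difference of centred log2 shares of 0.0574, followed by TRBV13-3 with 0.166. For TRBV15 these were TRBV5 (0.108) and TRBV3 (0.14), for TRBV17 they were TRBV5 (0.141) and TRBV15 (0.170), and for TRBV20 they were TRBV3 (0.118) and TRBV12-2 (0.244), with 21 labels compared in each case over only 4 libraries.

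By usable cells the 4 segments fell into 2 patterns of clone size. TRBV14, TRBV15 and TRBV17 clonotypes were expanded (2 or more usable cells) about as often as others, and TRBV20 clonotypes were nearly all single. Of TRBV14 clonotypes 17 of 111 (15.3%) were expanded, of TRBV15 14 of 76 (18.4%), of TRBV17 10 of 65 (15.4%), and of all other TRBV 403 of 3047 (13.2%). Of TRBV20 clonotypes 1 of 92 was expanded (1.09%, 95% Clopper-Pearson interval 0.0275 to 5.91), and that one held 2 cells. The ratio of the TRBV20 share to that of other TRBV was 0.0822 (95% counting interval 0.00208 to 0.460). The same ratio was 1.16 (0.668 to 1.88) for TRBV14, 1.39 (0.755 to 2.36) for TRBV15 and 1.16 (0.554 to 2.16) for TRBV17, intervals that hold 1.

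By library, 0 of 18 and 0 of 21 TRBV20 clonotypes were expanded in the 5xFAD;Cxcr6-/- libraries, which allow shares of up to 16.7% and 14.3%, against 1 of 23 and 0 of 30 in the 5xFAD libraries. The other TRBV had 11.4% and 10.4% expanded in the 5xFAD;Cxcr6-/- libraries and 11.2% and 17.6% in the 5xFAD libraries. By usable cells the observed TRBV20 share was below that of other TRBV in 4 of 4 libraries, by 11.6 points on average. The exact two-sided sign-flip permutation p was 0.13, the smallest that 4 libraries can give. TRBV20 was 1 of 3 such TRBV labels of 22 (13.6%). In the 5xFAD;Cxcr6-/- libraries the limits of 16.7% and 14.3% lie above the 11.4% and 10.4% of other TRBV. TRBV14 had 7.69% and 11.8% of clonotypes expanded in the 5xFAD;Cxcr6-/- libraries, and 18.5% and 18.9% in the 5xFAD libraries. TRBV15 had 27.3% and 5.56% in the 5xFAD;Cxcr6-/- libraries, and 17.4% and 25.0% in the 5xFAD libraries. TRBV17 had 25.0% and 0% (0 of 18) in the 5xFAD;Cxcr6-/- libraries, and 25.0% and 15.8% in the 5xFAD libraries. The last 3 segments therefore varied widely between libraries, on 8 to 37 clonotypes each. Over the 4 segments the within-library difference from other TRBV was −0.617 points (exact two-sided sign-flip permutation p = 1.0), with a sign that changed with the clone definition.

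In edgeR's quasi-likelihood test of expanded over single clonotypes, with the library as a block, TRBV20 fell by 3.62 on the log2 scale (SE 0.93, Benjamini-Hochberg adjusted p = 0.0057). It was 1 of 5 segments called among 152 (3.29%), all of them lower, beside TRAJ18, TRAV11, TRAJ6 and TRBV13-2. The log2 fold changes of TRBV14, TRBV15 and TRBV17 were 0.28 (SE 0.43, edgeR adjusted p = 0.898), 0.59 (SE 0.49, adjusted p = 0.765) and 0.31 (SE 0.56, adjusted p = 0.906), and none passed the test. The fold change of TRBV20 rests on 1 expanded clonotype: with DESeq2 it was −3.60 (SE 1.13, adjusted p = 0.0746), and with every clonotype that has a TRB it was −1.21 (edgeR adjusted p = 0.251). Without 5xFAD;Cxcr6-/- library 1 it was −3.39 (edgeR adjusted p = 0.0834), and without 5xFAD library 2 it was −2.82 (adjusted p = 0.169). The interaction with genotype was called for 0 of 152 segments (0.0%, with 4 at an unadjusted p under 0.05), and the edgeR adjusted p of each of the 4 members was 1.0.

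With cells of 2 TRB or no TRA included, the gap between TRBV20 and the other TRBV was smaller, and in that setting TRBV20 was not called (log2 fold change −1.21, edgeR adjusted p = 0.251). There a clonotype with more than 1 TRB chain was counted once for each chain, with the cells that carried that chain as its size. TRBV20 then had 115 single clonotypes and 7 of 2 cells, 7 of 122 (5.74%, 95% Clopper-Pearson interval 2.34 to 11.5), and 0 of 3 or more. TRBV14 had 125 single clonotypes, 16 of 2 cells, 7 of 3 to 4 cells and 1 of 5 to 9, with 6 cells in the largest. TRBV15 had 98, 10, 4 and 1 in these classes and 2 of 10 or more, with 13 cells in the largest. TRBV17 had 76, 7, 2 and 3 in these classes and 3 of 10 or more, with 51 cells in the largest. TRBV17 thus had both the fewest clonotypes and the largest one. Of other TRBV clonotypes 501 of 4103 (12.2%) held 2 or more cells. In 5xFAD library 1 this share was 10.3% for TRBV20 (3 of 29) and 9.80% for other TRBV, so TRBV20 was not below them there. It was below them in the other libraries, with 0% against 11.8% and 3.33% against 9.97% in the 5xFAD;Cxcr6-/- libraries. In 5xFAD library 2 it was 6.98% against 16.0%.

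**Figure D2:**
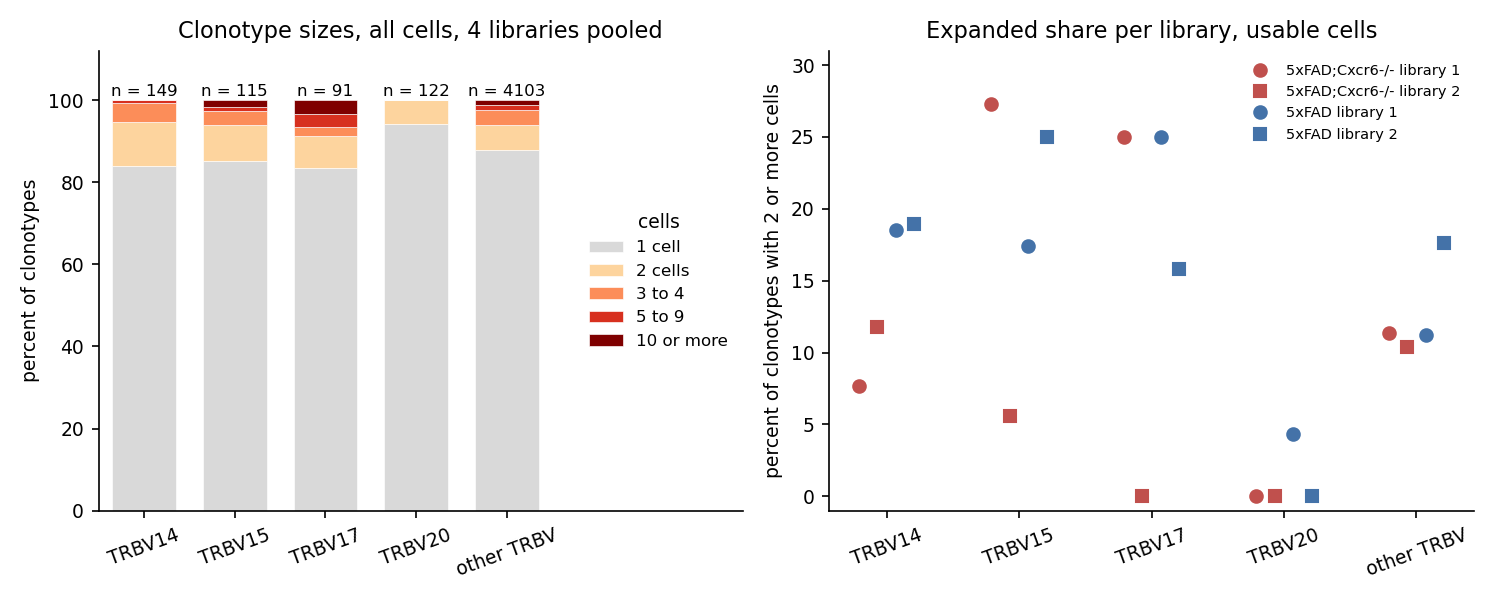
Left, percent of clonotypes by number of cells for each of the 4 TRBV and all other TRBV, over all cells with a TRB of the 4 libraries pooled, with the number of clonotypes above each bar. In this plot a clonotype with more than 1 TRB chain is counted once for each chain. Right, percent of clonotypes with 2 or more usable cells in each library; TRBV20 is at 0% in 3 libraries and at 4.35% in 5xFAD library 1.

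Because more cells per library give larger clones, genotypes were compared after each library was thinned to 567 usable cells. The share of cells in expanded clonotypes was then 0% in both 5xFAD;Cxcr6-/- libraries for TRBV20, and 3.09% and 0% in the 5xFAD libraries. For TRBV17 it was 66.7% and 0% in the 5xFAD;Cxcr6-/- libraries, and 40.9% and 49.8% in the 5xFAD libraries. For TRBV15 it was 42.9% and 5.70% in the 5xFAD;Cxcr6-/- libraries, and 14.4% and 54.6% in the 5xFAD libraries. For TRBV14 it was 20% and 14.4% in the 5xFAD;Cxcr6-/- libraries, and 28.0% and 14.9% in the 5xFAD libraries. The genotypes overlapped for all 4 segments, and for the 4 together the means were 19.6% in 5xFAD;Cxcr6-/- and 28.1% in 5xFAD (exact two-sided permutation p = 0.667). For other TRBV the share was 28.7% and 24.2% in the 5xFAD;Cxcr6-/- libraries, and 38.6% and 37.1% in the 5xFAD libraries. These did not overlap, with means of 26.4% and 37.8% (exact two-sided permutation p = 0.333). The lower mean in 5xFAD;Cxcr6-/- was thus not particular to the members.

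The largest clonotypes of each segment by usable cells, and 1 TRBV17 chain picked after its values were seen, are given by their CDR3 bases, since these are the sequences that carry the expansion. Lower case marks bases that match the germline V (left) and J (right) ends, and capitals mark the junction between them.
TRBV17 TRBJ2-7, 5xFAD;Cxcr6-/- library 1: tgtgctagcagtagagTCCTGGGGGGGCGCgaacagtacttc
TRBV17 TRBJ1-4, 5xFAD library 2: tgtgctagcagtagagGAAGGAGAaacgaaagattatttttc
TRBV17 TRBJ2-1, 5xFAD library 1: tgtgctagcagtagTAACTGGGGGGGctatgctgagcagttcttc
TRBV17 TRBJ2-5, 5xFAD library 2: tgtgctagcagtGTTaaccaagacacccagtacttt
TRBV15 TRBJ2-7, 5xFAD library 2: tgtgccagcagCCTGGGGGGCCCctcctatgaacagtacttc
TRBV15 TRBJ2-7, 5xFAD library 2: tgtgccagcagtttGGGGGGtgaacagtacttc
TRBV15 TRBJ2-4, 5xFAD library 2: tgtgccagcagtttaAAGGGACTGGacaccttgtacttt
TRBV14 TRBJ1-1, 5xFAD library 1: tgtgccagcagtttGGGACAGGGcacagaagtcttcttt
TRBV14 TRBJ2-3, 5xFAD library 1: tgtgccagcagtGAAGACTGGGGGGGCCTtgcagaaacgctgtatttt
TRBV14 TRBJ1-6, 5xFAD library 2: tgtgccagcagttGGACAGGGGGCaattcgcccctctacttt
TRBV20 TRBJ1-3, 5xFAD library 1: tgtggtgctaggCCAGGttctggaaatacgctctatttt
The first TRBV17 chain, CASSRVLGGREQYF with TRAV6N-7 TRAJ17, was in 51 cells, of which 10 were usable because 37 carried a second TRB and 4 had no TRA. The TRBJ1-4 chain, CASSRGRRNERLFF with TRAV3D-3 TRAJ12, was in 14 cells, 13 of them usable. The TRBJ2-1 chain was in 31 cells, of which 20 (64.5%) had no TRA and 9 were usable, paired with TRAV6-2 TRAJ34. The TRBJ2-5 chain, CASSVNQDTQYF, was in 9 cells, 8 of which had no TRA. The deposited clonotype size of TRBV17 chains therefore depended on which cells were counted.

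The 2 largest TRBV15 clonotypes, both joined to TRBJ2-7, were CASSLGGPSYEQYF with 11 cells, all usable, and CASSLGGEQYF with 13 cells, 10 of them usable. They had different alpha chains, TRAV14-2 TRAJ48 and TRAV5D-4 TRAJ24, and the third, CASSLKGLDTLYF with TRAV9N-4 TRAJ38, had 6 usable cells. The 3 largest TRBV15 clonotypes were all in 5xFAD library 2. The largest TRBV14 clonotype, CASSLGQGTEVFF, had 6 usable cells that carried 2 alpha chains, TRAV14-3 TRAJ52 and TRAV7-6 TRAJ16. The next had 4 cells, and several had 3, of which the one listed is an example. The only TRBV20 clonotype of more than 1 usable cell was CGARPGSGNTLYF with TRAV13D-2 TRAJ21, in 2 cells of 5xFAD library 1. By usable cells the first TRBV17 chain was the 2nd largest clonotype of 5xFAD;Cxcr6-/- library 1, while the TRBV20 one was 60th in 5xFAD library 1.

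In cells with 2 productive TRB chains, 1 expanded TRBV17 chain made up most of the TRBV17 contigs. Of TRBV17 contigs 51 of 207 (24.6%) were in a cell with a second TRB, of TRBV14 14 of 186 (7.53%), of TRBV15 17 of 161 (10.6%) and of TRBV20 14 of 129 (10.9%), against 476 of 6112 contigs of other TRBV (7.79%). For TRBV17 the share was 63.9% and 4.76% in the 5xFAD;Cxcr6-/- libraries, and 13.0% and 3.57% in the 5xFAD libraries, so that it was the lowest of the 4 members in 5xFAD;Cxcr6-/- library 2 and in 5xFAD library 2. TRBV14 had 0% and 7.41% in the 5xFAD;Cxcr6-/- libraries, and 12.2% and 6.45% in the 5xFAD libraries. TRBV15 had 15.0% and 10.7% in the 5xFAD;Cxcr6-/- libraries, and 5.56% and 11.7% in the 5xFAD libraries, and TRBV20 had 0% and 19.4% in the 5xFAD;Cxcr6-/- libraries, and 9.38% and 10.9% in the 5xFAD libraries. Without the most frequent chain of each library the share was 12 of 109 (11.0%) for TRBV17, 13 of 167 (7.78%) for TRBV14, 15 of 140 (10.7%) for TRBV15 and 14 of 122 (11.5%) for TRBV20. The high value of 5xFAD;Cxcr6-/- library 1 came from the 51-cell clone: 37 of its cells held the same second chain, TRBV23 joined to TRBJ1-1 with the 6-residue CDR3 shown here. In it capitals mark all bases past the V match. They may include J bases, because J ends were matched only back from the final phenylalanine codon.
TRBV23 TRBJ1-1, 5xFAD;Cxcr6-/- library 1: tgctccagcagtcGACAA
In those cells the median was 23 UMIs for the TRBV17 chain and 7 for the TRBV23 chain, whose CDR3 lacked the final phenylalanine and was 1 of 2 such among 4420 distinct TRB chains. A cell with 2 TRB can be a doublet or a T cell with both alleles productive. Of 57 distinct pairs of chains that involved a member, 4 recurred in 2 or more cells, and over all TRBV the next most frequent pair after this one was in 8 cells.

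With each chain counted once, no member passed the test. A second TRB was seen in at least 1 cell for 14 of 144 TRBV14 chains (9.72%), 16 of 110 TRBV15 chains (14.5%), 13 of 84 TRBV17 chains (15.5%) and 13 of 121 TRBV20 chains (10.7%), against 407 of 3961 other chains (10.3%). edgeR's quasi-likelihood test over 34 TRBV and TRBJ segments called 0 (0.0%, none with an unadjusted p under 0.05), and DESeq2 called 0. The log2 fold changes were −0.09 for TRBV14 (SE 0.47, edgeR adjusted p = 0.926), 0.54 for TRBV15 (SE 0.52, adjusted p = 0.707), 0.62 for TRBV17 (SE 0.61, adjusted p = 0.707) and 0.07 for TRBV20 (SE 0.52, adjusted p = 0.926). The interaction with genotype was called for 0 of 34 segments (0.0%, with 1 at an unadjusted p under 0.05).

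Cells without a productive TRA were 6.56% and 9.52% of TRBV17 cells in the 5xFAD;Cxcr6-/- libraries, and 37.7% and 30.4% in the 5xFAD libraries. For TRBV14 they were 28.6% and 20.4% in the 5xFAD;Cxcr6-/- libraries, and 10.2% and 17.7% in the 5xFAD libraries. With any other TRBV they were 15.3% and 15.2% in the 5xFAD;Cxcr6-/- libraries, and 20% and 18.6% in the 5xFAD libraries. TRBV17 and TRBV14 lay on opposite sides of the other TRBV in the genotypes, in opposite directions. Without the most frequent chain of each library, TRBV17 had 0% and 10.5% in the 5xFAD;Cxcr6-/- libraries, and 15.8% and 38.1% in the 5xFAD libraries. Missing alpha chains also differed between clones: among 52 chains of any TRBV with at least 10 cells of 1 TRB, the share without a TRA had a median of 10% and a range of 0% to 95%. TRBV15 (15.0% and 21.4% in 5xFAD;Cxcr6-/-, 16.7% and 19.5% in 5xFAD) and TRBV20 (10.0% and 12.9% in 5xFAD;Cxcr6-/-, 15.6% and 23.9% in 5xFAD) stayed closer to the rest.

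**Figure D3:**
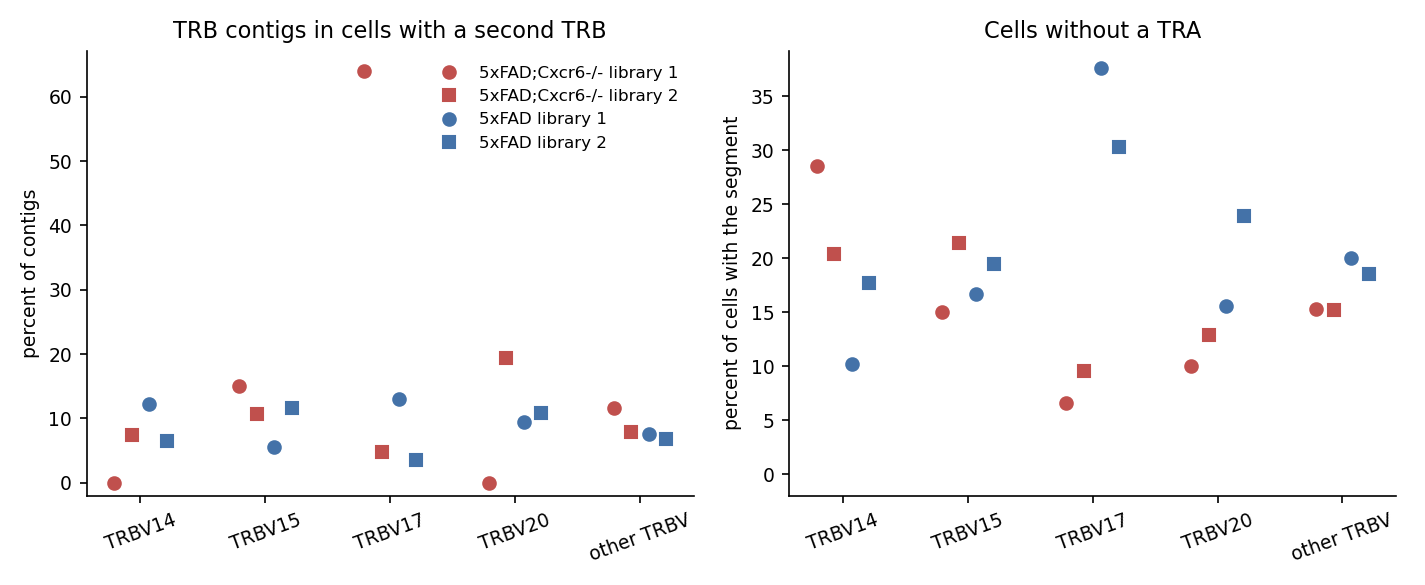
Percent of TRB contigs of each segment that were in a cell with a second productive TRB (left), and percent of cells with the segment that had no productive TRA (right), 1 point per library, 5xFAD;Cxcr6-/- in red and 5xFAD in blue. TRBV17 in 5xFAD;Cxcr6-/- library 1 is at 63.9% in the left plot, and TRBV17 in the 5xFAD libraries is at 37.7% and 30.4% in the right one.

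TRBV15 and TRBV17 contigs carried about 2 times the UMIs of other beta chains, while TRBV14 and TRBV20 did not. UMIs count captured transcripts per contig, here in cells with 1 TRB. The median for TRBV15 was 23 and 17 UMIs in the 5xFAD;Cxcr6-/- libraries, and 19.5 and 18.5 in the 5xFAD libraries. For TRBV17 it was 14 and 22 in the 5xFAD;Cxcr6-/- libraries, and 20.5 and 16.5 in the 5xFAD libraries. All other TRBV had 10 in both 5xFAD;Cxcr6-/- libraries, and 10 and 8 in the 5xFAD libraries. The mean log2 ratio to the other TRBV was 1.04 ± 0.21 for TRBV15 and 0.93 ± 0.30 for TRBV17 (SD, n = 4, each higher in 4 of 4 libraries, exact two-sided sign-flip permutation p = 0.13), and 5 of 22 TRBV labels (22.7%) were higher in all 4. TRBV14 (9 and 11 in 5xFAD;Cxcr6-/-, 10 and 6.5 in 5xFAD) and TRBV20 (9.5 and 11 in 5xFAD;Cxcr6-/-, 8 and 7 in 5xFAD) had log2 ratios of −0.08 and −0.11.

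Among the 20 labels with at least 10 such cells in every library, TRBV15 and TRBV17 held the first and second place in 3 of 4 libraries, and TRBV16, which lies between their genes, was among the first 3 in all 4 libraries, with a log2 ratio of 0.68. Counting each chain once, by its median over cells, TRBV15 had 23 and 20 UMIs in the 5xFAD;Cxcr6-/- libraries, and 21 and 19 in the 5xFAD libraries, and TRBV17 had 25 and 24 in the 5xFAD;Cxcr6-/- libraries, and 16 and 17.5 in the 5xFAD libraries. The log2 ratios to other TRBV were then 1.15 and 1.11, as large as over cells. The TRA chains of the same cells had medians of 3 to 5.5 UMIs, close to those of other cells. Whether the messenger level or its capture in the library differs between segments was not tested.

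**Figure D4:**
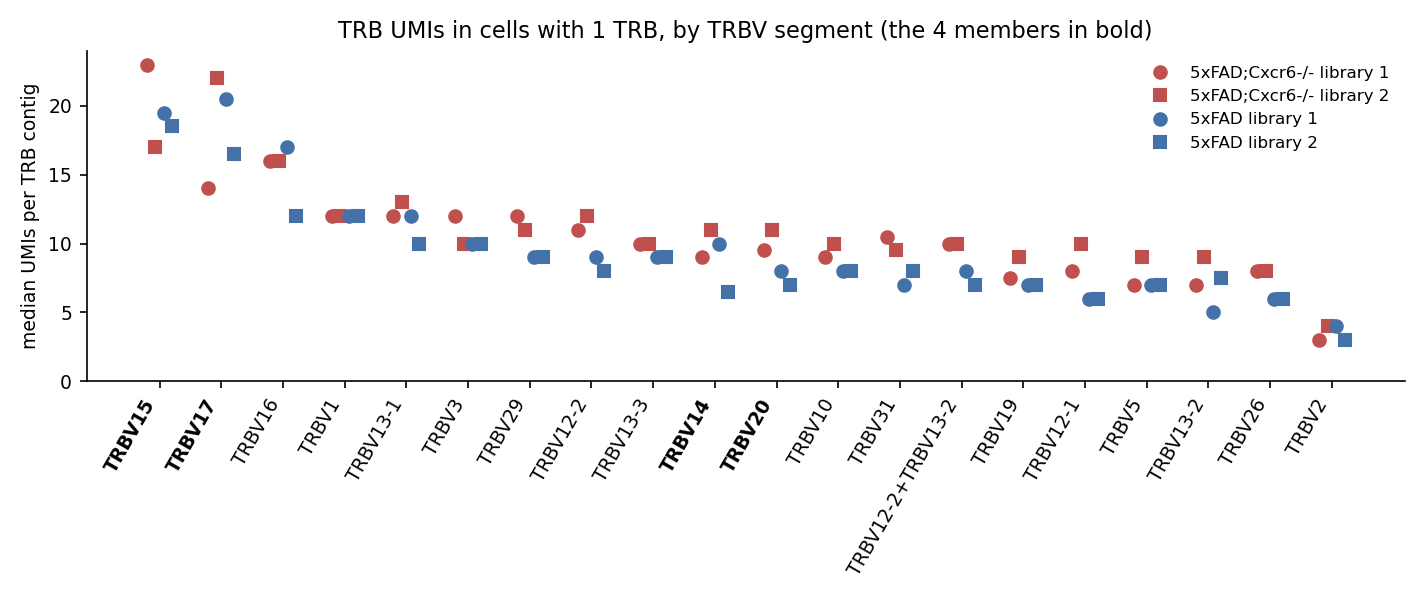
Median UMIs per TRB contig in cells with 1 TRB, 1 point per library, for the 20 TRBV labels with at least 10 such cells in every library, ordered by their mean, 5xFAD;Cxcr6-/- in red and 5xFAD in blue. TRBV15 and TRBV17 lie highest with medians between 14 and 23, and TRBV2 lies lowest at 3 or 4.

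The CDR3s of TRBV14, TRBV15 and TRBV20 were shorter than those of other TRBV in 4 of 4 libraries and those of TRBV17 in 3 of 4, and all 4 were less negative. TRBV20 had the shortest, with a mean of 12.4 and 13.3 amino acids in the 5xFAD;Cxcr6-/- libraries, and 13.2 and 12.7 in the 5xFAD libraries, each clonotype counted once. Other TRBV averaged 13.96 ± 0.0814 (SD, n = 4). TRBV14, TRBV15 and TRBV17 averaged 13.6 ± 0.162, 13.6 ± 0.212 and 13.6 ± 0.555 (SD, n = 4). TRBV17 was longer than other TRBV in 5xFAD library 1, with 14.4 amino acids (exact two-sided sign-flip permutation p = 0.375). The 4 together were shorter by 0.565 ± 0.161 amino acids (SD, n = 4, 4 of 4 libraries, exact two-sided sign-flip permutation p = 0.13), and 7 of 22 TRBV labels (31.8%) were shorter than the rest in all 4 libraries. TRBV20 was 1.08 amino acids shorter than other TRBV, of which part lay in the V end, with 11.8 germline V bases against 13.8, and part in the junction, with 8.86 bases against 9.87. TRBV10, for which no germline end was found, is left out of these values of other TRBV and of those for lost bases.

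TRBV20 clonotypes also kept more of their V end. They had lost 2.22 germline V bases on average against 2.8 in other TRBV, lower in 4 of 4 libraries, while TRBV14, TRBV15 and TRBV17 had lost 3.30, 4.15 and 3.42, each higher in 4 of 4 libraries (exact two-sided sign-flip permutation p = 0.13 for each). Of 21 TRBV labels 11 (52.4%) were lower and 5 (23.8%) higher than the rest in all 4 libraries. All 92 TRBV20 clonotypes began with Cys-Gly, 88 of them with Cys-Gly-Ala. An arginine stood at position 4 of the CDR3 in 63 of 92 TRBV20 clonotypes (68.5%) and at position 5 in 34 of 65 TRBV17 clonotypes (52.3%), against 4.96% and 4.30% of clonotypes with other TRBV at these positions. TRBV14 and TRBV15 kept the Cys-Ala-Ser-Ser start in 97 of 111 and 58 of 76 clonotypes.

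The mean net charge of the CDR3 without its first and last 3 residues was 0.127 for TRBV17, −0.295 for TRBV20, −0.501 for TRBV14 and −0.534 for TRBV15, against −0.838 in other TRBV. Each was less negative in 4 of 4 libraries (exact two-sided sign-flip permutation p = 0.13 for each), as were 9 of 22 TRBV labels (40.9%). The residues used start at position 4, so they include the arginine that the germline ends of TRBV20 and TRBV17 encode. The charge and hydropathy values are therefore not independent of the V segment that defined the members. The Kyte-Doolittle hydropathy of the same residues split the 4 segments: it was −1.79 and −1.83 for TRBV17 and TRBV20, below the −1.27 of other TRBV, and −1.07 and −1.03 for TRBV14 and TRBV15, above it, each in 4 of 4 libraries, as were 8 of 22 TRBV labels below the rest (36.4%) and 8 above it (36.4%). Lower values are more hydrophilic. By genotype, the charge overlapped for TRBV14 (−0.538 and −0.50 in 5xFAD;Cxcr6-/-, −0.667 and −0.297 in 5xFAD) and TRBV17 (0.13 and 0.0556 in 5xFAD;Cxcr6-/-, −0.250 and 0.579 in 5xFAD). It overlapped for TRBV15 as well, and for TRBV20 it was −0.333 and −0.429 in the 5xFAD;Cxcr6-/- libraries, below the −0.217 and −0.2 of the 5xFAD libraries (exact two-sided permutation p = 0.333), as were 3 of 22 TRBV labels without overlap (13.6%).

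**Figure D5:**
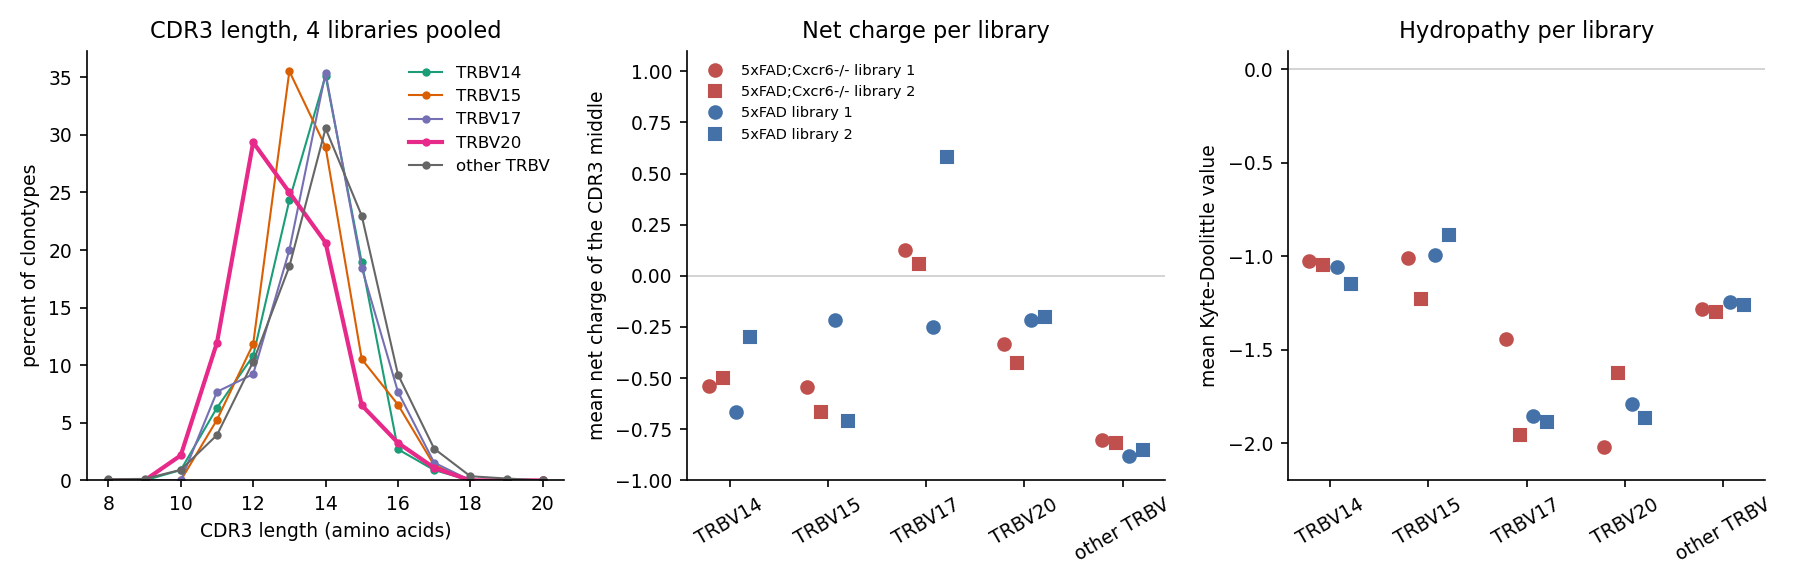
Left, distribution of CDR3 length for each of the 4 TRBV and all other TRBV, in percent of clonotypes of the 4 libraries pooled. Middle and right, mean net charge and mean Kyte-Doolittle hydropathy of the CDR3 without its first and last 3 residues, 1 point per library; TRBV17 has the highest charge, and TRBV17 and TRBV20 have the lowest hydropathy.

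The J segments joined to the members were those common in other chains. TRBJ2-7 was used by 81 of 344 member clonotypes, TRBJ1-1 by 43 and TRBJ2-1 by 37. TRBJ2-7 made up 44.0% and 22.0% of member clonotypes in the 5xFAD;Cxcr6-/- libraries, and 18.3% and 20% in the 5xFAD libraries, against a mean of 20.6% in other TRBV. TRBJ1-1 made up 6.00% and 9.89% in the 5xFAD;Cxcr6-/- libraries, and 14.0% and 16.4% in the 5xFAD libraries, against a mean of 11.4% in other TRBV. TRBJ2-1 made up 4.0% and 9.89% in the 5xFAD;Cxcr6-/- libraries, and 12.9% and 12.7% in the 5xFAD libraries. These 3 were among 6 of 12 TRBJ segments whose share of member clonotypes did not overlap between genotypes, 2 of them higher (16.7%) and 4 lower (33.3%) in 5xFAD;Cxcr6-/-, on 2 to 22 clonotypes per library for the 3. edgeR's quasi-likelihood test of the interaction with genotype called 0 of 130 partner segments (0.0%, with 2 at an unadjusted p under 0.05). None of the TRBJ segments was called in the partner test of the 4 together, and TRBJ2-7 had a log2 fold change of 0.22 (SE 0.27, edgeR adjusted p = 0.989).

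Segments of the TRBJ2 cluster were joined to TRBV15 in 90.9% and 66.7% of clonotypes in the 5xFAD;Cxcr6-/- libraries, and in 73.9% and 70.8% in the 5xFAD libraries. Other TRBV had 58.7% and 65.6% in the 5xFAD;Cxcr6-/- libraries, and 64.6% and 65.3% in the 5xFAD libraries. TRBV15 was thus higher in 4 of 4 libraries, by 12 points on average (exact two-sided sign-flip permutation p = 0.13), as were 4 of 22 TRBV labels (18.2%). TRBV20 had 83.3% and 66.7% in the 5xFAD;Cxcr6-/- libraries, and 39.1% and 56.7% in the 5xFAD libraries. TRBV14 (92.3% and 64.7% in 5xFAD;Cxcr6-/-, 70.4% and 64.9% in 5xFAD) and TRBV17 (75.0% and 61.1% in 5xFAD;Cxcr6-/-, 65.0% and 84.2% in 5xFAD) overlapped between genotypes.

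The alpha partners of the members held few of the 2 segments of the invariant NKT receptor, whose beta chains in mice are known to use mainly TRBV13, TRBV29 and TRBV1 segments. TRAV11 was paired with 5 of 344 member clonotypes (1.45%), against 387 of 3047 with other TRBV (12.7%), a ratio of 0.114 (95% counting interval 0.0369 to 0.269). TRAJ18 was paired with 12 of 344 (3.49%), against 442 of 3047 (14.5%), a ratio of 0.240 (0.123 to 0.424). These were the 2 segments called among 130 TRAV, TRAJ and TRBJ segments (1.54%, with 7 at an unadjusted p under 0.05). TRAV11 fell by 3.05 on the log2 scale (SE 0.57, edgeR adjusted p = 2.51e-05) and TRAJ18 fell by 2.0 (SE 0.45, edgeR adjusted p = 0.000781), and DESeq2 called the same 2. The call of TRAJ18 was lost without 5xFAD library 1 (edgeR adjusted p = 0.247), and without 5xFAD library 2 the adjusted p was 0.0684 for both segments. Leaving out iNKT-like clonotypes removes the TRAV11 to TRAJ18 pairs by definition, and neither segment was then called: the log2 fold change was −4.16 for TRAV11 (SE 2.71) and −0.34 for TRAJ18 (SE 0.63), with an edgeR adjusted p of 0.953 for each. The source of the difference was not tested.

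By member, TRAV11 was paired with 1 of 111 TRBV14, 1 of 76 TRBV15, 3 of 65 TRBV17 and 0 of 92 TRBV20 clonotypes. The 0 of 92 for TRBV20 allows up to 3.26%, at least 3.89-fold lower than other TRBV at the limit of 3 counts over the group. TRAV11 and TRAJ18, which was paired with 2 of 92 TRBV20 clonotypes (ratio 0.150, 95% counting interval 0.0181 to 0.545), were the 2 segments of 130 (1.54%) that edgeR called for TRBV20 alone, and DESeq2 called 0. The TRAJ18 call (edgeR adjusted p = 0.0219) was lost whichever library was left out (adjusted p from 0.0776 to 0.310), and that of TRAV11 (adjusted p = 0.000739) without 5xFAD library 1 (0.13) and without 5xFAD library 2 (0.0504). edgeR called 0 of 130 (0.0%) for TRBV14, TRBV15 and TRBV17 each, with 6, 3 and 1 at an unadjusted p under 0.05, and DESeq2 called 0 for each. iNKT-like pairs were carried by 5 member clonotypes, 3 of them TRBV17, against 372 with other TRBV, and MAIT-like pairs, TRAV1 joined to TRAJ33, by 0 against 8. The interaction with genotype was called for 0 of 130 segments (0.0%) in each of these fits.

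The next partners did not pass the test. TRAV6-6 was the most frequent alpha segment of the members, with 26 of 344 clonotypes (7.56%) against 123 of 3047 (4.04%) of other TRBV (log2 fold change 0.91, SE 0.41, edgeR adjusted p = 0.604). It was paired with 14 of 111 TRBV14 clonotypes (12.6%, log2 fold change 1.61, SE 0.58, edgeR adjusted p = 0.269) and 7 of 65 TRBV17 clonotypes, but with 1 of 76 TRBV15 and 4 of 92 TRBV20 clonotypes. TRAV6-2 was paired with 6 of 344 against 8 of 3047 (log2 fold change 2.60, SE 0.99, edgeR adjusted p = 0.397). TRAJ11 was paired with 10 of 344 against 32 of 3047 (log2 fold change 1.43, SE 0.63, edgeR adjusted p = 0.604), and 6 of these were TRBV20 clonotypes, found in all 4 libraries. TRAJ58 was paired with 0 of 344, which allows up to 0.872%, against 34 of 3047 (edgeR adjusted p = 0.551). Some TRAV genes have near-identical copies, so the deposited calls of TRAV6 and TRAV13 members are uncertain.

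The alpha partners were broad in every member. TRBV14 clonotypes used 55 TRAV labels, TRBV15 48, TRBV17 45 and TRBV20 47, and the 4 together used 76 of those seen, against 87 for the other TRBV. After TRAV6-6, TRAV16N (15 of 344) and TRAV13-1 (16 of 344) had the highest mean share over libraries among TRAV, and TRAV12D-3 also had 15 of 344. TRAJ22 (31 of 344), TRAJ23 (21 of 344) and TRAJ21 (15 of 344) led among TRAJ by the same measure.

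Few member CDR3s recurred between libraries. Of 452 member CDR3 amino-acid sequences 4 (0.885%) were found in 2 or more libraries, against 53 of 3864 (1.37%) of other TRBV. The recurrent ones, and 1 made by both TRBV14 and TRBV15, are shown with the bases of each library, junction in capitals, since these show whether the same bases were made.
TRBV20 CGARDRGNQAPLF, 5xFAD libraries 1 and 2: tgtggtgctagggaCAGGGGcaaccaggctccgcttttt
TRBV20 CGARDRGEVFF, 5xFAD;Cxcr6-/- library 1: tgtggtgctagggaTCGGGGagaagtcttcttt
TRBV20 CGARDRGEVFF, 5xFAD library 1: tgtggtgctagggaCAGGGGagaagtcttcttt
TRBV14 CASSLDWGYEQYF, 5xFAD;Cxcr6-/- library 1: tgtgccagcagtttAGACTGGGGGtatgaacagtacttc
TRBV14 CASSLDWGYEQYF, 5xFAD library 2: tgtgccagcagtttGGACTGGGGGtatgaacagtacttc
TRBV14 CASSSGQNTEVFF, 5xFAD;Cxcr6-/- library 2: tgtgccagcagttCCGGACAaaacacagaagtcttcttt
TRBV14 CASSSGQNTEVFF, 5xFAD library 2: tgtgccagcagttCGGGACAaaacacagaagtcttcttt
TRBV14 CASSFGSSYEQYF, 5xFAD library 2: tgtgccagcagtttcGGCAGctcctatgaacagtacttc
TRBV15 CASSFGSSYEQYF, 5xFAD library 2: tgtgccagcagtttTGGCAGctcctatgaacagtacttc
The first was the same to the base in both libraries, and the other 3 that recurred between libraries, each shared between the genotypes, were made by different bases. The last pair is a single CDR3 made by 2 member segments in 1 library. Both TRBV20 CDR3s that recurred kept the whole germline V end of 14 bases, with a junction of 6 bases. Where alpha chains were read in both libraries, they differed between the cells that shared a beta CDR3. Within a library, TRBV14 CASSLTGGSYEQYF in 5xFAD;Cxcr6-/- library 1 and TRBV20 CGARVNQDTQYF in 5xFAD library 2 were each made by 2 sets of bases. The residues VNQDTQYF of this TRBV20 CDR3 also end the TRBV17 chain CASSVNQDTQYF of the same library. All of these but the valine are encoded by the germline TRBJ2-5 end of 21 bases, which both chains kept whole. TRBV15 and TRBV17 had 0 CDR3s in more than 1 library.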

How the data were processed

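Chromium Single Cell Immune Profiling v2 libraries were processed by the authors with Cell Ranger 6.0 and the build mm10, per the submitters' processing notes; the receptor reference was not given in the sources used here. The deposited tables hold raw counts of reads and UMIs per assembled contig, with no normalization, per the file headers. Groups came from the labels. A clonotype is a deposited clonotype identifier over usable cells (1 TRB, 1 or 2 TRA, per cell). Cells with 2 TRB were left out of clonotype tests, and no other step was taken against doublets.

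Clonotypes per segment, for segments with at least 10, were tested with edgeR 4.0.16 (quasi-likelihood F test, clonotype totals as library size, Benjamini-Hochberg adjustment, threshold 0.05), and with DESeq2 1.42.0 as an alternative, in R 4.3.3. The SE with an edgeR value is the absolute log2 fold change divided by the square root of F. Library values were compared with exact permutation tests in Python 3.11.15 with pandas 2.3.3, numpy 2.4.6 and scipy 1.17.1, and plotted with matplotlib 3.10.9. Other TRBV are all segments but the 4 members. In counts of TRBV labels above or below the rest, each label was instead set against every TRBV except itself, members included. Germline ends were taken from GENCODE vM21 transcripts on GRCm38, the build mm10 names, which gave 21 of 22 V labels and all 12 J segments. Clone counting and the edgeR code were tested on simulated data.

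The 4 members, every list and every test were chosen with earlier results of these data known. Named partners were segments called, the 3 TRBJ, TRAV and TRAJ of highest mean share, and the 3 of each direction with the smallest p. Named clones were the 3 largest of each member and recurrent CDR3s. Leaving out clonotypes whose cells together hold more than 1 TRB, and leaving out the most frequent chain of a segment, were added after the data were seen. The labels do not say that equal replicate numbers mark a shared origin, so the replicate block was an alternative. Intervals and limits of 0 counts are 95% and 3 counts and cover counting error only.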

Additional observations from a re-analysis of the deposited data

Results flagged for a closer look

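In 3 cases every 5xFAD;Cxcr6-/- library lay on one side of the other TRBV and every 5xFAD library on the other side. In this section all other TRBV means every TRBV except the one named, other members included. Cells without a TRA are counted here once per TRB contig. The differences from the rest were not themselves tested between genotypes. For single partner segments of TRBV20, TRBJ among them, edgeR's quasi-likelihood test of the interaction with genotype called 0 of 130 (0.0%). The TRBJ2 share of TRBV20 clonotypes, minus that of all other TRBV, was 22.6 and 1.15 percentage points in the 5xFAD;Cxcr6-/- libraries and −25.9 and −9.05 in the 5xFAD libraries, a difference of 29.3 points between genotype means. By this measure 2 of 22 TRBV labels (9.09%) split in that way, and each TRBV20 value rests on 18 to 30 clonotypes. The share of TRBV14 cells without a TRA, minus that of all other TRBV, was 14.4 and 5.66 points in the 5xFAD;Cxcr6-/- libraries and −9.65 and −0.683 in the 5xFAD libraries, a difference of 15.2 points. The same measure for TRBV17 was −8.61 and −5.50 points in the 5xFAD;Cxcr6-/- libraries and 18.7 and 12.2 in the 5xFAD libraries, a difference of −22.5 points. Of 22 TRBV labels 4 (18.2%) split in that way for cells without a TRA. For TRBV17 a single chain of 31 cells held 20 of the 26 cells without a TRA in 5xFAD library 1, and a single chain of 9 cells held 8 of the 17 in 5xFAD library 2. In 5xFAD library 2 the most frequent TRBV17 chain was a different one, with 14 cells, 1 of them without a TRA. Leaving out the most frequent chain of each library therefore kept the 9-cell chain in. The TRBV17 shares without a TRA were then 0% and 10.5% in the 5xFAD;Cxcr6-/- libraries, and 15.8% and 38.1% in the 5xFAD libraries. For TRBV14 they were then 33.3% and 20% in the 5xFAD;Cxcr6-/- libraries, and 11.9% and 15.8% in the 5xFAD libraries. The part that single clones take in these differences was not tested further.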

How the results depend on the processing

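Of 393 values recomputed under another setting, 312 kept their direction and side of the threshold, 23 lost the threshold, 28 changed sign and 30 moved. The expanded share of the 4 segments minus other TRBV (−0.617 points) was 0.133 by TRB chain alone, 1.09 with every clonotype with a TRB, 0.138 with a TRB of at least 3 UMIs, and −2.46 to 0.805 leaving out a library. Without iNKT-like clonotypes 0 segments were called by genotype, 1 in expanded over single (TRBV20), 0 as partners of the 4 and 0 as partners of TRBV20. Counting cells gave 0 calls by genotype. Expanded over single gave 3 calls with a TRB of at least 3 UMIs, 2 with DESeq2, 9 with TMM, 2 with 3 or more cells as expanded and 2 to 3 leaving out a library. Partner calls of the 4 were 1 with no filter and 0 to 2 leaving out a library. TRBV14 partner calls were 2 with every clonotype and 2 with TMM, and 0 to 2 leaving out a library. TMM gave 7 for TRBV15, 3 for TRBV17 and 5 for TRBV20, whose calls were 1 with every clonotype, 1 with at least 3 UMIs, 0 with DESeq2 and 0 to 1 leaving out a library. TMM moved the median of all segments to −0.20 (expanded over single), −0.34 (partners of the 4) and −1.09, −1.33, −1.65 and −1.53 (partners of TRBV14, TRBV15, TRBV17 and TRBV20), so its calls are relative to a shifted zero.

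By genotype, TRBV15 was −0.0238 with every clonotype, −0.16 without iNKT-like clonotypes, −0.00848 with at least 3 UMIs, −0.0433 with 1 TRB over the whole clonotype, −0.12 with DESeq2, −0.12 with TMM, −0.14 in cells and −0.0872 to 0.12 leaving out a library. TRBV17 was −0.13 with every clonotype, −0.0584 without iNKT-like clonotypes, −0.0543 with DESeq2, −0.00745 with TMM and −0.0725 to 0.28 leaving out a library, and TRBV14 was −0.0867 to 0.42. In expanded over single, TMM gave −0.06 for TRBV14 and −0.0348 for TRBV17, which was −0.29 to 0.73 leaving out a library. With a second TRB, TRBV20 was −0.0343 with DESeq2 and −0.52 to 0.30 leaving out a library, and TRBV14 was −0.41 to 0.0808. None of these members was called in any of these settings, and the cause was not tested. The edgeR adjusted p of TRBV20 in expanded over single ranged from 0.000676 to 0.251 over 14 alternatives and passed the threshold in 9. Replicate numbers did not pair the libraries (correlation of deviations −0.061, 2 pairs, 152 segments), and the fit with the replicate block called 2 segments by genotype. Depth limits every member, with 8 to 37 clonotypes per segment and library.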
